A study of Mus musculus with 96 samples.

Results

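The subject here is a set of 10 genes that were lower in the skeletal muscle of mice housed with a running wheel: Dkk3, Gdap1, Fbp2, Dupd1, Kcnab1, Tiam1, Twist1, Il12a, Ptx3 and Cbr2. They were picked from measured values, namely for a lower level in muscle after running (EX) than in wild-type muscle, and Tiam1 and Twist1 also for a lower level in brown fat under caloric restriction (CR). They are 10 of the 16593 genes that the array annotation names, and they carry 17 of its 25697 probes. In the wild-type muscle arrays used for that choice, and in the EX arrays, their values are therefore given as a description, without a test.

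The series holds 96 single-colour Illumina bead arrays of total RNA, 24 for each of 4 tissues of male mice, with 6 arrays in each of 4 conditions. The tissues were liver, skeletal muscle, brown fat (BAT) and epididymal white fat (eWAT). The wild-type group (WT, C57/Bl6) ate a low fat diet ad libitum. The SIRT1Tg/Tg group (SIRT1Tg here), which carries a Sirt1 transgene, ate that diet ad libitum as well. CR mice were WT animals held for 3 months on a restriction labelled EODF (not spelled out there). EX mice were WT animals on the low fat diet ad libitum with a running wheel cage for 10 weeks. All animals were killed in the morning after fasting for 12 h. The labels give neither the ages, nor which muscle was taken, nor the promoter of the transgene.

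The arrays came from 27 animals, of which 21 gave all 4 tissues, and an animal is named below by its place among the animal numbers of its condition (WT animal 1 to 7). The labelled numbers fall into a lower series (A) and a higher series (B), whose meaning the labels do not state. All EX animals are in series A and all CR animals in series B, while WT and SIRT1Tg muscle has 3 animals of each, and every fit carried the series as a term. The muscle arrays had 8427 to 12321 probes above background and a mean signal of 153 to 278. The low ends come from single arrays. That of CR animal 4 had 8427 probes (the next lowest 10321) and a mean signal of 167, and that of EX animal 5 had the mean signal of 153. Acta1, Ckm, Des, Mb and Ttn, markers of skeletal muscle, were high on all of them, for example Ckm at 13.64 to 13.80 in WT. Sirt1 was higher in SIRT1Tg than in WT muscle by 1.83 ± 0.12 on the log2 scale (SE, n = 6 and 6, adjusted p = 3.74e-10 by limma), in eWAT by 2.58 and in BAT by 1.37. In liver it differed by 0.86 (adjusted p = 0.368), where SIRT1Tg animal 1 had the lowest Sirt1 level, 4.48, and only 5841 probes above background. A level below is a background-corrected, quantile-normalised log2 intensity, an adjusted p is Benjamini-Hochberg over all features of the tissue, and the threshold is 0.05.

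The 10 genes belong to different processes. Skeletal muscle is a mosaic of slow fibres, which work oxidatively, and fast fibres, which rely more on glycolysis, and endurance running is known to shift fibre properties towards the slow, oxidative side. Among the members, Fbp2 is the muscle isoform of fructose bisphosphatase and serves the return of lactate to glycogen, Kcnab1 is a beta subunit of voltage-gated potassium channels, and Gdap1 is a protein of the outer mitochondrial membrane that is mutated in human Charcot-Marie-Tooth neuropathy. Myl3, the essential myosin light chain of slow fibres and of the heart, was used as a gauge of slow fibre RNA on each array. In whole tissue, fewer cells of a type and less RNA per cell cannot be told apart.

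RefSeq promoter windows on GRCm38.p6, running from 250 bases before to 50 bases after an annotated start, were at hand for 8 of the 10 members, 12 windows in all. Of the members shown here, Fbp2 and Dupd1 are printed for their several matches to the E-box (CANNTG, the core that helix-loop-helix factors such as the myogenic factors and Twist1 recognise), and Cbr2 is printed beside them for comparison, with fewer. All are on the minus strand and written 5′ to 3′, with each E-box in capitals.
Fbp2, chr13:62858351-62858650: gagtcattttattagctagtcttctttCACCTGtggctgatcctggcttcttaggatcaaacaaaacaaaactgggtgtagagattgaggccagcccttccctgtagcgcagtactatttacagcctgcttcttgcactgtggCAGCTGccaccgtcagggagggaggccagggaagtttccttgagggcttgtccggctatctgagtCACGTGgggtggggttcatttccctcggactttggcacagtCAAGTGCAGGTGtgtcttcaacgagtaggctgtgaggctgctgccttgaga
Dupd1, chr14:21714527-21714826: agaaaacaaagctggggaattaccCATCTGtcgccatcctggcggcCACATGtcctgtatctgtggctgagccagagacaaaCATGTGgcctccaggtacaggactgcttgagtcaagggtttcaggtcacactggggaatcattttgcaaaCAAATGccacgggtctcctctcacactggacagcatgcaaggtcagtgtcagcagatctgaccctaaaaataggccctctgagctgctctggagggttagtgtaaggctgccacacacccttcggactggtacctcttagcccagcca
Cbr2, chr11:120731972-120732271: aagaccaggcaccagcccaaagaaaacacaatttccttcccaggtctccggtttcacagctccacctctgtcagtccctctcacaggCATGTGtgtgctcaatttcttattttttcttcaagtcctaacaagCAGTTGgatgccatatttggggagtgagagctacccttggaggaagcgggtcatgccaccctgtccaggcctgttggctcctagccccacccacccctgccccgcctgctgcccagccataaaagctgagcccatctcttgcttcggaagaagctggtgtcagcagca
The Fbp2 window held 5 E-boxes, of which 1 reads CAGCTG. The Dupd1 window held 4 and the Cbr2 window 2. Among the windows not printed, a Tiam1 window also held 5, of which 1 reads CAGCTG, while the other Tiam1 window and the Twist1 window held 0. An E-box, which reads the same on both strands, was present in 10 of the 12 member windows and in 72.3% of the 32851 windows of that length in the reference table. CAGCTG, itself an E-box, was in 2 of 12 against 16.3%, the MEF2 motif, CTA and TAG with 4 bases of any kind between, in 1 of 12 (Dupd1) against 3.69%, and TATAAA, searched on both strands, in 2 of 12 against 13.6%. These matches describe the letters of the windows only.

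Across WT tissues 9 of the 10 members were highest in muscle, on the authors' normalised matrix, in which each array has the same distribution of values. The choice of the members used the WT muscle arrays, which favours genes that are high there. The share of all features highest in muscle was not counted. Dkk3, a secreted glycoprotein of the Dickkopf family, stood at 10.56 ± 0.38 in muscle (log2, mean ± SD, n = 6) against 7.39 ± 0.44 in eWAT, the next tissue. Fbp2 stood at 10.56 ± 0.21 in muscle and 9.46 ± 0.48 in BAT. Neither gene's muscle range overlapped the next tissue.

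Dupd1, a dual specificity phosphatase, was at 9.0 ± 0.45 in muscle and was above background on 1 of the 18 other WT arrays. Gdap1 was at 8.94 ± 0.15 in muscle and at 6.66 to 6.69 on average elsewhere, and Il12a, which encodes a subunit of interleukin 12, at 8.03 ± 0.21 against 6.64 to 6.71. These 3 genes were thus measured mainly in muscle, each with no overlap between muscle and the next tissue.

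Kcnab1 stood at 8.03 ± 0.21 in muscle and 7.06 ± 0.24 in eWAT, and Ptx3, a long pentraxin of innate immunity, at 7.29 ± 0.11 in muscle against 6.68 ± 0.06 in eWAT, again without overlap. Cbr2, a carbonyl reductase, was at 9.23 ± 0.31 in muscle and 8.75 ± 0.17 in eWAT, with overlapping ranges. Tiam1, the exchange factor that loads Rac1 with GTP, was at 8.41 ± 0.26 in muscle, 8.15 ± 0.31 in BAT and 7.73 ± 0.34 in eWAT, and neighbours in that order overlapped. Twist1, a helix-loop-helix factor that holds back myogenic differentiation, was the exception, with 7.29 ± 0.06 in BAT, 7.18 ± 0.11 in eWAT and 7.09 ± 0.17 in muscle, all overlapping.

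**Figure D1:**
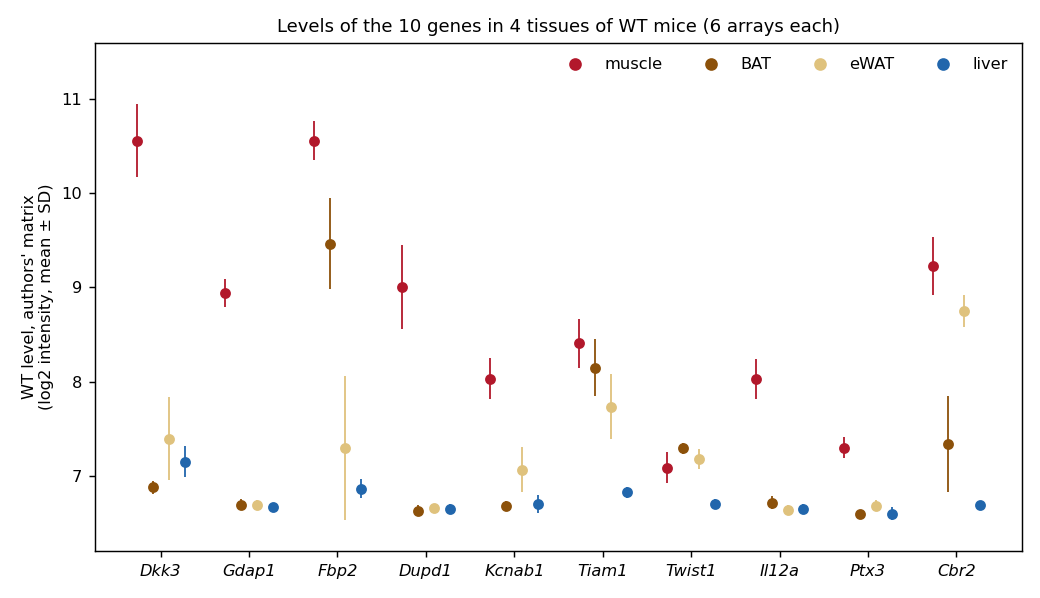
Mean level of each member in 4 tissues of WT mice (log2 intensity of the authors' matrix, y axis; points are means of 6 arrays, bars are SD). Muscle is the highest tissue for every member but Twist1, and Dkk3 and Fbp2 are the brightest at 10.56. The WT muscle arrays were used to choose the members.

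In muscle, all 10 members passed the filter on dim probes, and in EX against WT all 10 were lower and past the threshold, as their choice implies. Of all 9450 features tested there, 0.804% were called lower and 2.03% called in either direction. By the size of the difference, the members hold places 1 to 27 among the falls. The 6 EX arrays did not overlap the 6 WT arrays for 8 members, and for Dupd1 and Cbr2 5 of 6 EX arrays lay below all WT arrays. This separation follows in part from the choice of the members, and the share of all features without overlap was not counted. The count past the threshold rests on single arrays and on the handling of slides: it was 1 to 10 with 1 array left out (1 without WT animal 1) and 0 with slide as a fixed term, while all 10 differences stayed below 0. In muscle, EX and WT arrays shared a slide only for EX animal 1 and WT animal 7. Slide and running can therefore hardly be told apart, and the fit with slide as a fixed term cannot separate them well.

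Among the secreted products, Dkk3 had levels of 9.65, 10.35 and 10.63 (lowest, median and highest) in WT muscle and of 6.39, 8.66 and 9.21 in EX muscle. Its difference of -1.82 ± 0.46 (SE), 3.53-fold lower, is the largest of the set, and its EX arrays are also the most spread, with 1 array far down at 6.39. Dkk3 belongs to the Dickkopf family of secreted modulators, whose other members are Wnt antagonists.

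Il12a ran from 6.61 over 7.02 to 7.55 in WT and from 5.27 over 6.05 to 6.2 in EX, a difference of -1.13 ± 0.27, or 2.18-fold lower. Ptx3 ran from 5.49 over 5.64 to 6.03 in WT and from 4.25 over 4.79 to 4.97 in EX, a difference of -0.91 ± 0.23, or 1.88-fold lower. Both immune genes were dim in muscle, and for both every EX array was below every WT array.

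Among enzymes, Fbp2 had 9.85, 10.29 and 10.42 in WT and 8.81, 9.12 and 9.71 in EX, a difference of -1.05 ± 0.19, or 2.07-fold lower. Dupd1 had 7.58, 8.34 and 9.31 in WT and 6.61, 7.36 and 7.73 in EX, a difference of -1.17 ± 0.27, or 2.24-fold lower. Cbr2 had 8.04, 8.69 and 9.08 in WT and 7.34, 7.71 and 8.24 in EX, a difference of -0.86 ± 0.20, or 1.82-fold lower. Fbp2 separated the groups fully, whereas Dupd1 and Cbr2 each had 1 EX array inside the WT range.

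Gdap1, the mitochondrial membrane protein, had 8.06, 8.30 and 8.60 in WT and 6.47, 6.69 and 7.60 in EX, a difference of -1.24 ± 0.24, or 2.36-fold lower. Of its EX arrays 5 lay at 6.76 or below and that of EX animal 8 at 7.60. The channel subunit Kcnab1 had 6.59, 7.05 and 7.5 in WT and 5.21, 6.06 and 6.36 in EX, a difference of -1.01 ± 0.27, or 2.02-fold lower. Neither gene's groups overlapped.

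Of the regulators, Tiam1 had 7.02, 7.63 and 8.01 in WT and 6.02, 6.38 and 7.01 in EX, a difference of -1.0 ± 0.26, or 1.99-fold lower. Twist1 had 4.79, 5.15 and 5.91 in WT and 4.33, 4.44 and 4.76 in EX, a difference of -0.85 ± 0.18, or 1.80-fold lower. The highest EX array of each gene lay just below its lowest WT array. Twist1 was above background on 2 of the 6 EX arrays only, so its EX level is close to the lower limit of the measurement.

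**Figure D2:**
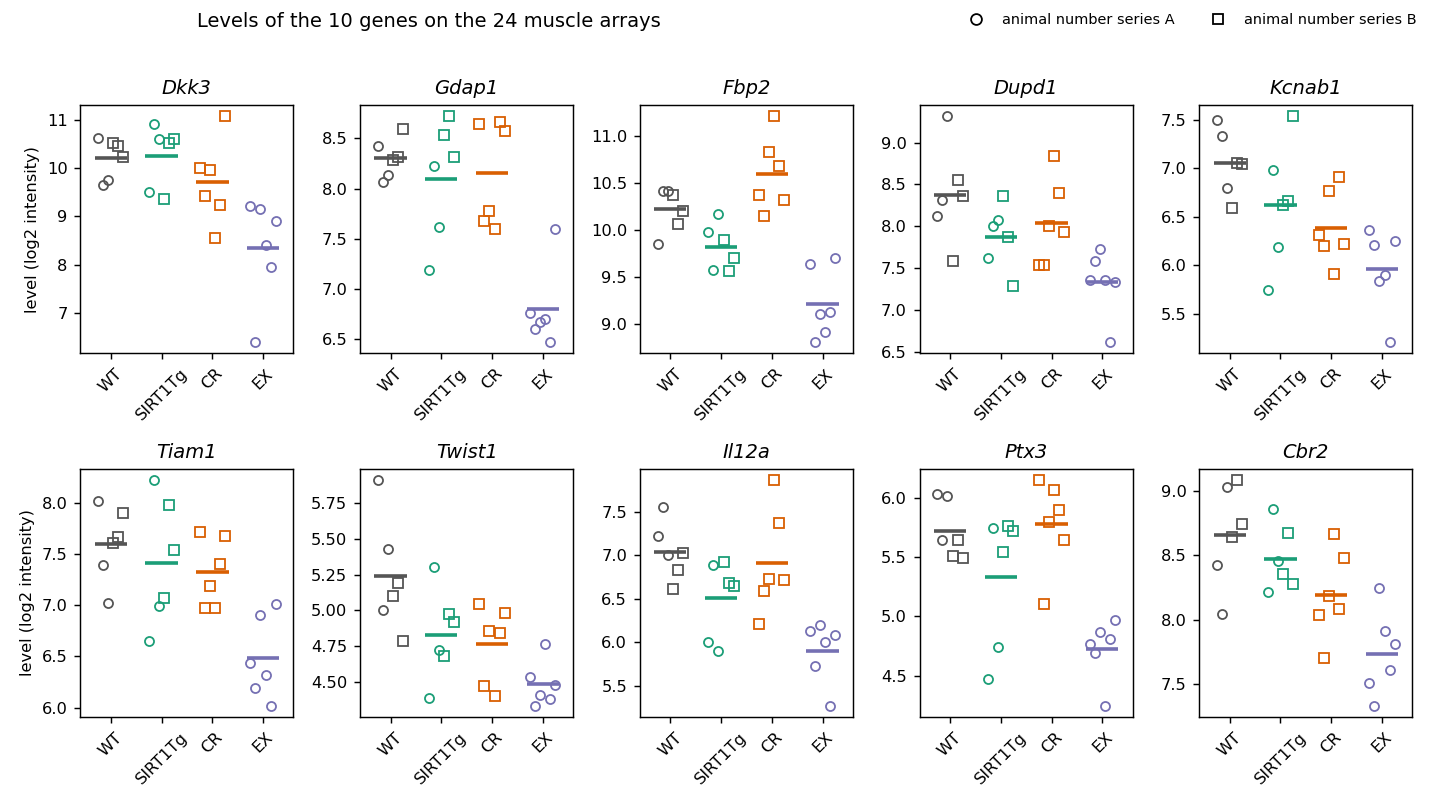
Level of each member on the 24 muscle arrays (log2 intensity, y axis) by condition; circles are animals of number series A, squares of series B, and bars are group means. The members were chosen for lower levels in EX than in WT, and EX arrays lie below WT arrays for 8 of them without overlap. Fbp2 is highest in CR, and 2 SIRT1Tg arrays of series A are low for Ptx3.

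Since all EX animals are in series A, the same differences were taken from the arrays of that series alone (6 EX and 3 WT). They ranged from -0.76 for Cbr2 to -1.68 for Dkk3, with Gdap1 at -1.40, Il12a at -1.36 and Kcnab1 at -1.25. For the number series itself, 0.138% of all features in muscle were called by limma and 804 had an unadjusted p under 0.05. Among the members 0 of 10 were called and 1 had an unadjusted p under 0.05. That member was Gdap1, which differed by 0.52 ± 0.22 between series B and A (adjusted p = 0.504), and in SIRT1Tg muscle its levels were 7.19 to 8.23 in series A and 8.31 to 8.72 in series B.

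Other probes of the same genes give a second reading of part of the set, on the same arrays. Of the 17 member probes 15 passed the filter in muscle. The second Dkk3 probe had an EX difference of -1.77, the second Gdap1 probe -0.92, the second Kcnab1 probe -0.91 and the second Ptx3 probe -0.77. A further Dkk3 probe, above background on 12 of 24 arrays, had -0.24. Each of these second-probe differences was smaller in size than that of the gene's fitted probe.

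The genes that share pathways with the members were looked at through 10 lists. In EX muscle Mfn1, a mitochondrial fusion protein, rose by 0.60 (1 of 12 measured genes of mitochondrial fission and fusion, adjusted p = 0.0122). Of 27 measured genes of glycolysis, glyconeogenesis and glycogen, none rose and 2 fell: Pygm, the muscle glycogen phosphorylase, fell by 0.54 (adjusted p = 0.0295) and Pgam2, the muscle phosphoglycerate mutase, fell by 0.36 (adjusted p = 0.0467). The median of that list was -0.067 against -0.0145 for all features.

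Of 16 measured carbonyl reductases and related dehydrogenases, Dhrs11 rose by 0.68 (adjusted p = 0.0205) and Rdh14 fell by 0.35 (adjusted p = 0.0333). In the other 7 lists, namely Wnt modulators, dual specificity phosphatases, potassium channel subunits, Rac regulators, helix-loop-helix factors, the interleukin 12 family and pentraxins, 0 genes passed by limma, with 0 to 5 in each at an unadjusted p under 0.05. In CR and in SIRT1Tg muscle 0 genes of all 10 lists passed by limma, with at most 5 of a list at an unadjusted p under 0.05.

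CR muscle and SIRT1Tg muscle were not used to pick the members, but both comparisons share their WT arrays with that choice. Genes picked for WT levels above EX levels tend to be high on these WT arrays, which favours differences below 0 here. The counts of lower members and the p-values below are therefore no separate support, and each comparison is given with its own values. In CR against WT, 0 of 10 members passed by limma, 4 had an unadjusted p under 0.05, and 0% of all 9450 features were called (577 at an unadjusted p under 0.05). The median member difference was -0.389 against -0.00448 over all features, with 9 members lower. In SIRT1Tg against WT, 0 of 10 passed by limma and 4 had an unadjusted p under 0.05. Of all features 0.0317% were called and 799 had an unadjusted p under 0.05. There the median was -0.398 against -0.0139, again with 9 lower.

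Kcnab1 had the largest CR difference. Its CR levels were 5.91, 6.26 and 6.91, and all 6 lay below the WT mean, 4 of them below every WT array. The difference was -0.75 ± 0.27 (95% interval -1.31 to -0.20, adjusted p = 0.562).

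Cbr2 had CR levels of 7.71, 8.13 and 8.67 and a difference of -0.53 ± 0.20 (95% interval -0.94 to -0.12, adjusted p = 0.64). Twist1 had CR levels of 4.40, 4.85 and 5.05 and a difference of -0.38 (adjusted p = 0.787). For both genes the groups overlapped.

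Dkk3 spread more in CR than in any other group except EX, with 8.56, 9.70 and 11.08, and a difference of -0.55 ± 0.46 (95% interval -1.51 to 0.40). Gdap1 in CR split without an intermediate array, with 3 arrays at 7.78 or below and 3 at 8.58 or above.

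Fbp2 was the 1 member that was higher in CR than in WT. Its CR levels were 10.15, 10.53 and 11.20, and the difference was 0.42 ± 0.19 (95% interval 0.02 to 0.82, adjusted p = 0.775). SIRT1Tg levels of Fbp2 were 9.57, 9.80 and 10.17, all below the WT mean, a difference of -0.40 ± 0.17 (adjusted p = 0.55). Fbp2 thus lay on opposite sides of WT in these groups, neither past the threshold.

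In the contrast of CR with SIRT1Tg muscle neither group was used to pick the members, but WT arrays, which were used, enter through the series term of the shared fit. Of all features 0.106% were called by limma and 933 had an unadjusted p under 0.05. Among the members 0 of 10 passed and 1 had an unadjusted p under 0.05. That member was Fbp2, with a difference of 0.83 ± 0.19 (95% interval 0.43 to 1.23, adjusted p = 0.111) and 5 of 6 CR arrays above every SIRT1Tg array. The plain group means of Fbp2 were 10.59 in CR and 9.82 in SIRT1Tg. Its difference was 0.87 (adjusted p = 0.693 by limma) when the 12 arrays of these groups were fitted alone, an alternative chosen after seeing the data, and 0.78 (adjusted p = 0.0275) without the series term. Without the array of CR animal 4, which had the fewest muscle probes above background, it was 0.70 (adjusted p = 0.122 by limma). Ptx3 had 4 of 6 CR arrays above every SIRT1Tg array and a difference of 0.36 ± 0.23 (adjusted p = 0.609).

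In SIRT1Tg muscle, Il12a had 5.90, 6.67 and 6.92 and a difference of -0.54 ± 0.24 (adjusted p = 0.554). Dupd1 had 7.29, 7.94 and 8.36 and a difference of -0.50 (adjusted p = 0.59), and Twist1 4.39, 4.82 and 5.30 with -0.41 (adjusted p = 0.518). All 6 SIRT1Tg arrays were below the WT mean for Il12a and Dupd1, and 5 of 6 for Twist1.

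Dkk3 was at 9.37, 10.57 and 10.93 in SIRT1Tg, a difference of 0.05 ± 0.41 (95% interval -0.81 to 0.91). Ptx3 ran from 4.47 to 5.76 in SIRT1Tg, where the arrays of series A lay at 4.47, 4.74 and 5.74 and those of series B at 5.54 to 5.76. The low values of Ptx3 in this group came from 2 animals.

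**Figure D3:**
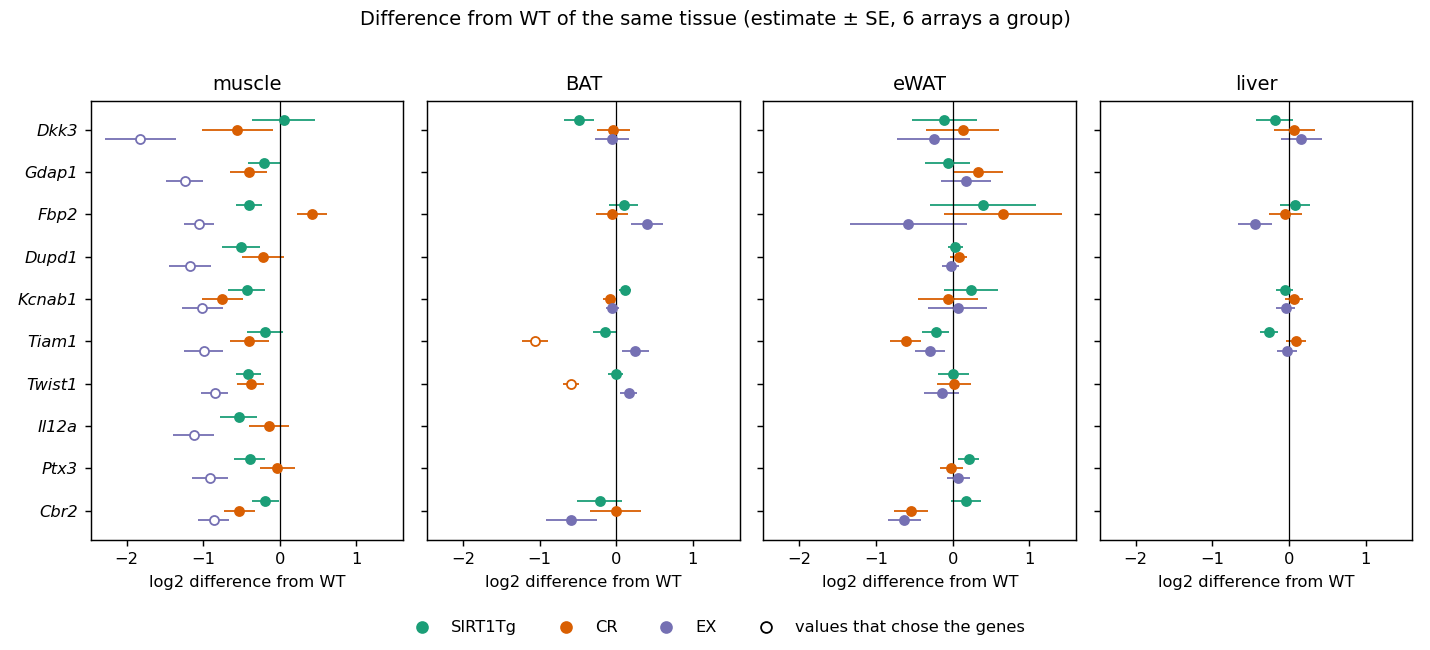
Difference of each condition from WT of the same tissue (log2, x axis; points are limma estimates, bars are SE, 6 arrays a group) for the members measured in each tissue. Open circles mark values used to choose the genes, which lie between -0.59 and -1.82; all filled points are differences that did not pass the threshold.

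Myl3 sets the muscle arrays apart more than any member. Its levels were 4.19, 6.15 and 11.31 in WT, 5.88, 8.20 and 11.55 in SIRT1Tg, 6.69, 10.50 and 12.63 in CR, and 11.70, 12.14 and 12.82 in EX. The EX difference was 6.57 ± 1.19 (adjusted p = 0.0112 by limma). Apart from EX, each group thus spans low and high arrays, and in WT the array of animal 4 stood alone at 11.31, with the next at 6.79.

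Of 12 measured slow fibre genes, Myl3 included, 8 rose in EX, among them Myl2 by 5.27, Tnnc1 by 4.86 and Tnnt1 by 4.76, while Myh7 and Pln were not above the filter. Those that did not pass by limma were Tpm3 at 0.15 (adjusted p = 0.771), Csrp3 at 2.24 (adjusted p = 0.199), Fabp3 at 0.62 (adjusted p = 0.16) and Ankrd2 at 1.87 (adjusted p = 0.0921). The list's summed level was 3970 to 15200 in WT, 5630 to 23100 in SIRT1Tg, 3300 to 27100 in CR and 14600 to 33800 in EX. Of 12 measured fast fibre genes 0 passed the threshold by limma (0 in either direction), with summed levels of 142000 to 149000 in WT and 128000 to 151000 in EX. The largest differences by limma were Myh1 at 1.07 (adjusted p = 0.0818), Casq1 at -0.62 (adjusted p = 0.297) and Myh4 at -0.48 (adjusted p = 0.377). Myh1 ran from 10.14 to 11.21 in WT and from 11.31 to 12.07 in EX. The summed level weighs the brightest genes most, such as Tnnc2, at 14.26 on every WT array. Most of the fast fibre genes lay between 13.26 (the lowest of Mybpc2) and 14.26 in WT, near the top of the levels, where a change can be compressed. That no fast fibre gene passed thus does not show that fast fibre RNA stayed the same. The part of the slow fibre genes in the lower member levels was not tested.

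Markers of other cells were read on the same arrays. In EX muscle 1 of 4 measured endothelial markers rose, and 1 of 3 of the brown adipocyte list, whose defining gene Ucp1 was not above the filter. Of 9 fibroblast and tendon markers 0 changed by limma, with a summed level of 3330 to 5380 in WT and 2860 to 4610 in EX. Of 5 macrophage markers 0 changed (summed level 86.3 to 360 in WT, 78.7 to 180 in EX), and of 3 Schwann cell and nerve markers 0 changed (93.1 to 236 and 113 to 230). Of 3 adipocyte markers 0 changed by limma, with a summed level of 210 to 927 (median 385) in WT and 57.3 to 446 (median 142) in EX, while Plin1 and Fabp4 were not above the filter. On the muscle list Mb, which stores oxygen, rose by 0.67 (adjusted p = 0.0453). Their part in the member levels was not tested.

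Over all 24 muscle arrays the members' correlation with Myl3 was below 0 for all 10, from -0.307 for Fbp2 to -0.756 for Twist1 (Pearson's r), which restates in part how the members were chosen. It was therefore tested on the 12 SIRT1Tg and CR arrays, whose Myl3 levels ran from 5.88 to 12.63 with a largest gap of 1.53. There r was below 0 for 9 of 10 members, the exception being Fbp2 at 0.22. None of the 10 relations passed after adjustment by the permutation test, and 1 had an unadjusted p under 0.05 for r. That was Cbr2, with r = -0.601 (permutation p = 0.0379, adjusted 0.259) and rho = -0.587 (permutation p = 0.0478, adjusted 0.238), and r = -0.263 without the 2 arrays farthest from the median.

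The next members by r were Twist1 at -0.533, Tiam1 at -0.496, Gdap1 at -0.477 and Dupd1 at -0.466, all with an adjusted permutation p of 0.259. Spearman's rho for these was -0.357, -0.462, -0.378 and -0.601, the last with a permutation p of 0.0443 (adjusted 0.238). Within the 6 SIRT1Tg arrays r was -0.867 for Cbr2 (exact permutation p = 0.0222, adjusted 0.222) and -0.763 for Dupd1, and within the 6 CR arrays -0.378 and -0.402. The relation of Cbr2 to Myl3 rests in part on the farthest arrays.

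The array of WT animal 4, with its high Myl3, gives a look at single members. On it Dupd1 (7.58), Kcnab1 (6.59) and Il12a (6.61) were the lowest of the WT arrays. Dkk3 (10.53), Fbp2 (10.37), Gdap1 (8.29) and Tiam1 (7.60) were inside the range of the other WT arrays. Without this array the EX differences ran from -0.85 for Twist1 to -1.79 for Dkk3.

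**Figure D4:**
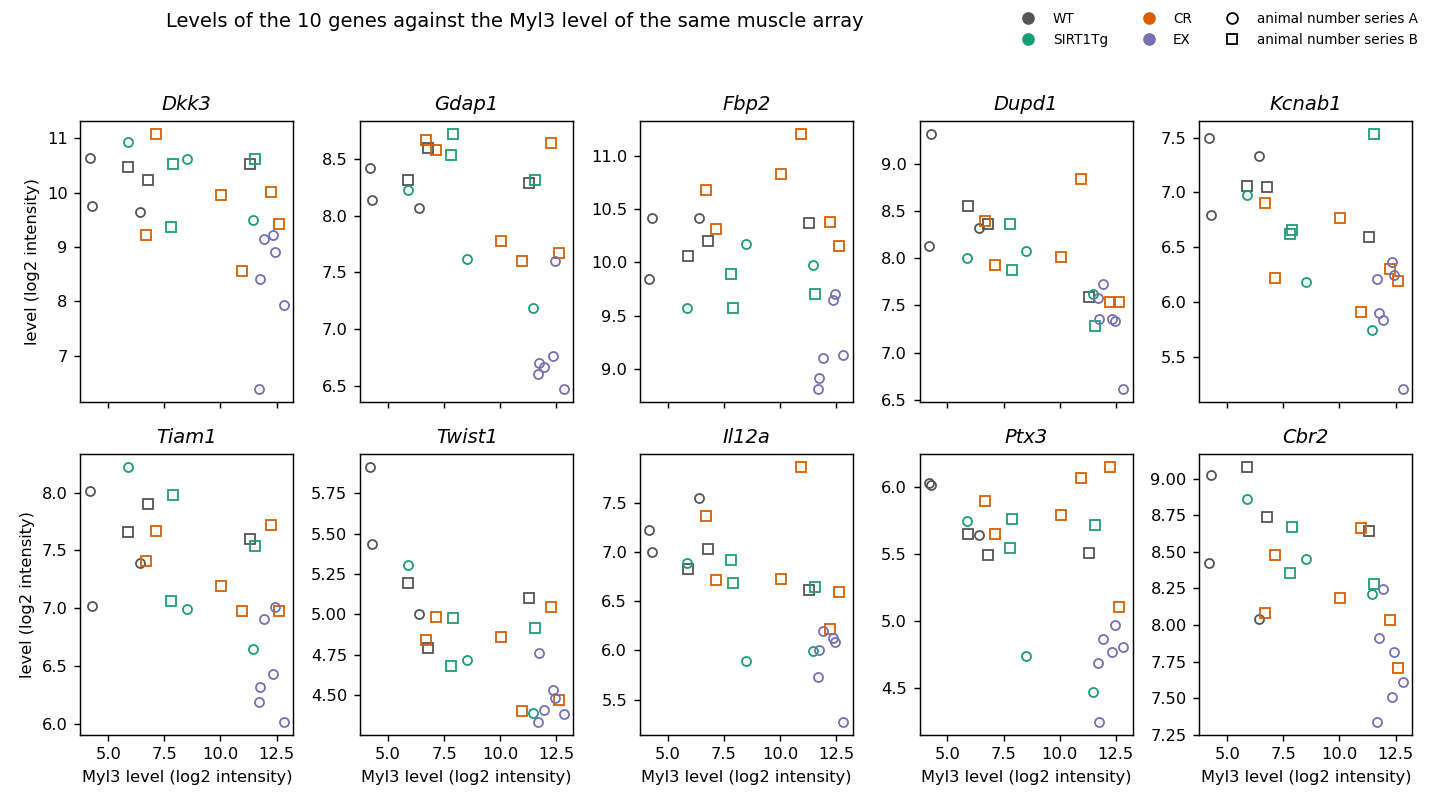
Level of each member (log2 intensity, y axis) against the Myl3 level of the same muscle array (log2 intensity, x axis), coloured by condition, with circles for number series A and squares for series B. Dupd1 and Twist1 have the most negative r over the 24 arrays (-0.753 and -0.756); for Fbp2 (-0.307) CR arrays with a high Myl3 level are not low.

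When each array's Myl3 level was added to the muscle fit, the EX differences of the members changed unequally. Fbp2 kept 120% of its difference (-1.26 ± 0.29, SE) and Dkk3 81.4% (-1.48 ± 0.70). Dupd1 kept 27.9% (-0.32 ± 0.35). The remaining 7 kept 41.6% (Gdap1, -0.52 ± 0.31) to 50.8% (Cbr2, -0.44 ± 0.28). For every member the SE was larger than without the term, and whether members differ in the part kept was not tested.

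With the mean of the slow fibre genes in place of Myl3, Dkk3 had -2.08 ± 0.66 (SE), Fbp2 -1.13 ± 0.28 and Dupd1 -0.32 ± 0.31. Il12a had -0.32 ± 0.30 and Kcnab1 -0.41 ± 0.34, and the other 5 lay between -0.46 (Ptx3) and -0.67 (Tiam1). With either term 0 of 9450 features passed in EX against WT by limma, against 192 without, and the number at an unadjusted p under 0.05 went from 1537 to 372 with Myl3 and to 475 with the slow fibre mean. EX and a high Myl3 level occur together on these arrays, so a term for one takes up part of the other, and they cannot be told apart fully.

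**Figure D5:**
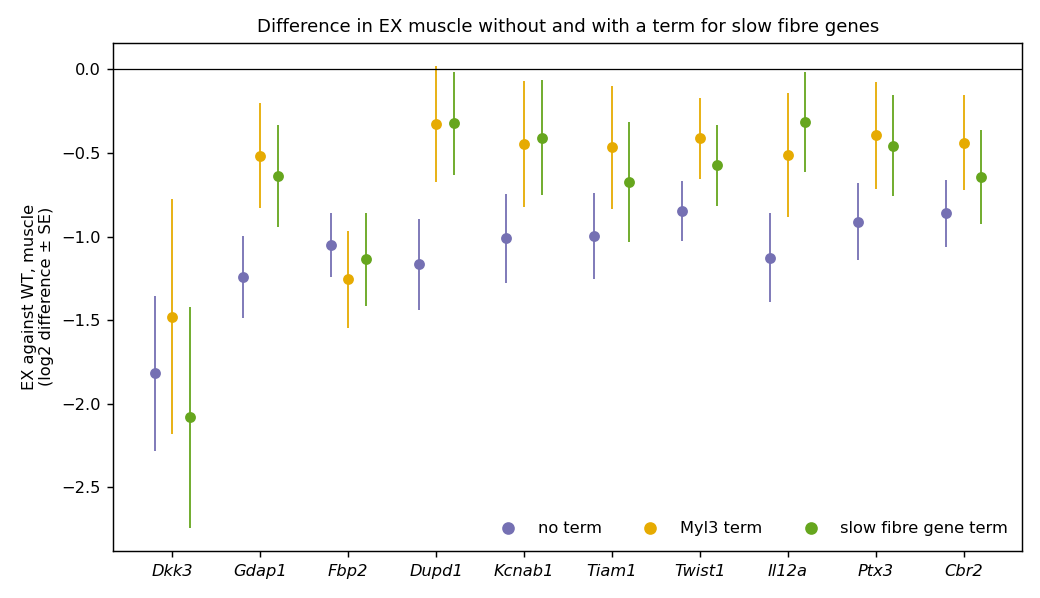
EX difference from WT in muscle for each member (log2, y axis; points are limma estimates, bars are SE) without a further term, with the Myl3 level and with the slow fibre gene mean of each array as a term. Dkk3 and Fbp2 stay near or beyond -1.05 in all 3 fits, while Dupd1 goes from -1.17 to -0.32.

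The members also varied from array to array within conditions, which the choice by group means did not use directly. With each condition's mean taken off, the 45 pairs of members had a median r of 0.242 over the 24 arrays, from -0.384 to 0.734 (Gdap1 with Tiam1), and 34 were above 0. The points share labelling and scanning, so these values are a description. By the same measure the gene most like Dkk3 was Agpat3 (r = 0.778), followed by Rad23b (0.761), for Fbp2 S100a4 (0.779) and Slamf9 (0.71), and for Cbr2 H4c12 (0.82) and Ppp2r5c (0.789).

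Il12a had the closest partners, Dipk1a (0.924) and Car11 (0.891), and Ptx3 had Cited4 (0.802) and Fkbp8 (0.76). For Gdap1 they were Amd2 (0.843) and Nptn (0.819), for Kcnab1 Igfbp5 (0.808) and Rufy1 (0.796), and for Dupd1 Aimp2 (0.809) and Supt3 (0.807). For Tiam1 they were Sh3rf2 (0.824) and Sbk1 (0.818), and for Twist1 Ints14 (0.833) and Mtus1 (0.785). No member was among the closest pair of another member.

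In brown fat 6 members passed the filter: Dkk3, Fbp2, Kcnab1, Tiam1, Twist1 and Cbr2. Tiam1 had 6.95, 7.53 and 8.00 in WT BAT and 6.37, 6.49 and 6.90 in CR BAT, a difference of -1.06 ± 0.17, or 2.08-fold lower. Twist1 had 5.85, 6.03 and 6.2 in WT and 5.29, 5.62 and 5.81 in CR, a difference of -0.59 ± 0.11, or 1.5-fold lower. Both genes separated the groups fully, they are the 2 of 6 members called there, and they were chosen for it, while 0.18% of all 10025 features were called lower and 0.269% in either direction. Without WT animal 4 or 7, Tiam1 alone passed.

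In the BAT groups that the choice did not use, neither passed the threshold. Tiam1 in EX BAT had 7.27, 7.68 and 7.88, a difference of 0.25 ± 0.17 (95% interval -0.10 to 0.60, adjusted p = 0.466), and Twist1 had 5.86, 5.99 and 6.37, a difference of 0.16 ± 0.11 (adjusted p = 0.452). In SIRT1Tg BAT the differences were -0.15 for Tiam1 (adjusted p = 0.68) and -0.01 for Twist1 (adjusted p = 0.982). The plain group means were 7.63 in EX against 7.5 in WT for Tiam1 and 6.05 against 6.03 for Twist1, and the rest of each EX difference comes from the series term. With slide as a fixed term the Tiam1 difference was -0.22. The difference between the tissues was not tested.

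BAT arrays differed in fast fibre RNA, with a mean level of the measured fast fibre genes of 4.91 to 9.01 in WT and 4.94 to 11.9 in CR. With that mean as a term, chosen after the data were seen, the CR differences were -1.06 for Tiam1 and -0.59 for Twist1. These are differences for which both genes were chosen, and the part of fast fibre RNA in them was not tested.

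Of the 6 members measured in BAT, 0 passed by limma in SIRT1Tg, with 1 at an unadjusted p under 0.05. In EX 0 of 6 passed, with 0 at an unadjusted p under 0.05. Of all features 0.389% were called in SIRT1Tg and 4.6% in EX, with 1595 and 1965 at an unadjusted p under 0.05. Dkk3 in SIRT1Tg BAT had 4.27, 4.34 and 4.94 against 4.75, 4.82 and 5.33 in WT, a difference of -0.48 ± 0.20 (adjusted p = 0.23), with 5 of 6 arrays below all WT arrays at levels close to background. Fbp2 in EX BAT had a difference of 0.40 ± 0.21 (adjusted p = 0.305) and Cbr2 one of -0.59 ± 0.33 (adjusted p = 0.353).

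The arrays of WT animal 3 bear on these last values. In BAT its Fbp2 level was 7.99, where the other 23 arrays had 8.99 to 9.76, and its Cbr2 level was 7.65, the highest of the BAT arrays. In eWAT its Fbp2 level was 9.10, where the other WT arrays had 5.64 to 6.23. The brown fat marker Ucp1 was 13.65 on its BAT array and 4.82 on its eWAT array, both within the range of the other arrays of that tissue.

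In eWAT 9 members passed the filter, all but Il12a, and 0 of 9 passed the threshold in SIRT1Tg, CR or EX by limma, with 0, 2 and 1 at an unadjusted p under 0.05. Of all 11791 features 0.0594%, 3.61% and 0.00848% were called in these comparisons, and 1069, 1719 and 487 had an unadjusted p under 0.05. Tiam1 in CR eWAT had 7.11, 7.36 and 7.43 against 6.80, 7.5 and 8.39 in WT, a difference of -0.61 ± 0.20 (95% interval -1.02 to -0.20, adjusted p = 0.0969). All 6 CR arrays were below the WT mean and all were inside the WT range. Without WT animal 3 its adjusted p was 0.049, and without the series term the difference was -0.31 (adjusted p = 0.531).

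Cbr2 in EX eWAT had 7.52, 8.12 and 8.96 against 8.69, 9.01 and 9.20 in WT, a difference of -0.63 ± 0.22 (95% interval -1.09 to -0.17, adjusted p = 1). Of the EX arrays 5 of 6 lay below all WT arrays. Without the series term the difference was -0.85 (adjusted p = 0.175). In CR eWAT it had 8.25, 8.68 and 8.93, a difference of -0.55 ± 0.22 (adjusted p = 0.215), and in SIRT1Tg eWAT 0.18 ± 0.20 (adjusted p = 0.926). Fbp2 was too spread in eWAT to place, with 4.39 to 9.42 in EX and an interval of -2.17 to 1.02 for its difference.

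In liver 4 members passed the filter (Dkk3, Fbp2, Kcnab1 and Tiam1), all at low levels. By limma 0 of 4 passed in any comparison, with 1, 0 and 0 at an unadjusted p under 0.05 in SIRT1Tg, CR and EX. Of all 9973 features 0.0602%, 0.271% and 0.0201% were called there, and 1014, 664 and 861 had an unadjusted p under 0.05. Tiam1 in SIRT1Tg had a difference of -0.26 ± 0.12 (adjusted p = 0.47) and Fbp2 in EX one of -0.44 ± 0.22 (95% interval -0.89 to 0.01, adjusted p = 0.588). Without the dim array of SIRT1Tg animal 1, left out after the data were seen, 0 of 4 passed as well.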

How the data were processed

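Total RNA of 96 mouse tissue samples was measured on Illumina bead arrays. The deposited raw table holds summary intensity values per probe, without detection p-values, and the authors' matrix holds log2 values that share 1 distribution across all arrays (column medians 6.72), ranked within an array as the intensity. GenomeStudio and Partek are named, per the submitters' processing notes, without versions. The 2 tables hold 0 value columns that were not used.

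From the intensity, with R 4.3.3 and limma 3.58.1, background was set per array at the mode of the log2 density (bandwidth 0.03), corrected by normexp with an offset of 16, and quantile-normalised within each tissue. A probe counted as above background past the upper 0.05 tail, was kept if so on 6 of 24 arrays, and 1 probe a gene (the highest mean) was fitted with condition and animal number series as terms. Differences are on the log2(corrected intensity + offset) scale and understate changes of dim genes. Probes were named from the platform annotation, updated by gene ID for 23962 probes. 16 probes kept the platform symbol and 1719 had none. Samples are arrays of separate animals, and p-values measure the spread between them. Correlations used 100000 permutations, or all orders for 6 arrays (Python 3.11.15, numpy 2.4.6, scipy 1.17.1). The fit was tested on simulated data. The array number, 6 a group, limits precision.

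Each array title ends in a number that the title does not explain, shared by 8 arrays and taken here as the slide (12 in all). Slide was tried as a random block (correlation 0.0871 in liver, 0.115 for muscle, 0.193 for BAT, 0.117 for eWAT) and as a fixed term. Other settings were the authors' matrix, no background correction, an offset of 50, median scaling, no filter and 12 arrays as its minimum, no series term, 1 series only, array weights, a fit on probes, a Myl3 or slow fibre term in muscle, and each array left out.

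Named were the members with every probe, Myl3 and the fibre genes, up to 4 genes past the threshold per pathway list by smallest p, and per member the 2 genes of highest correlation in muscle. The members and lists were chosen with earlier results of these data known.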

Additional observations from a re-analysis of the deposited data

Results flagged for a closer look

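Each member's levels were searched in each group of 6 arrays for an array whose gap to the nearest other is too large a share of the group's range by Dixon's test at 95%. Of 116 groups 15 had such an array, where chance gives about 1 in 20.

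In muscle, Gdap1 on the array of EX animal 8 was 7.60 (the other EX arrays 6.47 to 6.76) and Dupd1 on the array of EX animal 6 was 6.61 (the others 7.34 to 7.73). The first lies nearer to WT than the rest of its group and the second farther from it.

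WT animal 3 stood apart for Fbp2 in every other tissue, with 7.99 in BAT (the other WT arrays 9.21 to 9.54), 9.10 in eWAT (5.64 to 6.23) and 5.44 in liver (4.57 to 4.89). In SIRT1Tg liver the array of animal 1, with few probes above background, stood apart for Dkk3 at 4.31 (5.50 to 5.87) and for Fbp2 at 6.17 (4.30 to 4.94). Kcnab1 was 4.79 on the liver array of CR animal 3 (4.31 to 4.45), and Dkk3 was 4.94 on the BAT array of SIRT1Tg animal 5 (4.27 to 4.41).

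In eWAT, Gdap1 stood apart in 3 groups, at 5.16 in WT animal 2 (4.29 to 4.41), 6.43 in CR animal 4 (4.28 to 4.84) and 5.72 in EX animal 4 (4.23 to 4.62). Ptx3 did so in WT animal 5 at 4.79 (4.29 to 4.44) and EX animal 7 at 5.04 (4.23 to 4.52), and Kcnab1 in SIRT1Tg animal 2 at 5.27 (6.42 to 6.88). The reason for each was not tested.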

How the results depend on the processing

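No paired analysis was possible because no animal was in more than 1 condition. Of the 10 members past the threshold in EX against WT muscle, 6 passed without background correction, 4 with median scaling, 3 without the filter on dim probes, and 0 with slide as a fixed term, with the Myl3 term or with the slow fibre term; leaving out single arrays gave 1 to 10, with 1 without WT animal 1, 4 without WT animal 2, 3 without WT animal 3, 4 without EX animal 2, 6 without EX animal 5 and 3 without EX animal 6. All 10 differences stayed below 0 in each of these settings, but were smaller without background correction (Twist1 -0.25, Ptx3 -0.31). For slide this says little, since EX and WT muscle arrays shared a slide only for EX animal 1 and WT animal 7. The 2 members called in CR BAT became 1 without the series term, in series B alone and with slide as a fixed term, each time Tiam1, and 1 to 2 when single arrays were left out, with 1 without WT animal 4 or 7. In CR eWAT the count went from 0 to 1 (Tiam1) with median scaling (adjusted p by limma 0.0438), in series B alone (0.0354) and with array weights (0.0241), and was 0 to 1 over single arrays, with 1 without WT animal 3 (0.049); its adjusted p ranged up to 0.727 with slide as a fixed term, and its difference was -0.31 (0.531) without the series term. In CR against SIRT1Tg muscle the count went from 0 to 1 (Fbp2) without the series term (0.0275) and with array weights (0.0122), and was 0 in every other setting run. Differences that changed sign by more than the spread within groups, none of them past the threshold, were Kcnab1 in SIRT1Tg liver without the filter (0.15), Ptx3 in SIRT1Tg muscle in series B alone (0.13), and, with slide as a fixed term, Tiam1 (-0.22) and Cbr2 (0.15) in EX BAT, Gdap1 (-0.47) and Kcnab1 (1.13) in CR eWAT, and Dkk3 (1.24) and Gdap1 (-0.48) in EX eWAT. The correlation of Ptx3 with Myl3 was 0.00179 without the 2 farthest arrays. The cause was not tested. In SIRT1Tg BAT and eWAT slide as a fixed term could not be fitted, since no slide held both groups. Of 1284 member differences with 1 array left out, 1283 counted as unchanged and 69 turned sign within the spread within groups. For the differences that chose the genes, unchanged meant a move smaller than that spread, on either side of the threshold. For the others it meant no change of side and no sign change beyond that spread. Under the other settings there were 1336 differences and correlations. Of these, 36 of the differences that chose the genes moved by more than that spread with their sign kept. A turned sign was seen for 88 values, those named above among them. Twist1, Ptx3 and most members outside muscle are dim, and their signal over background limits what can be seen.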

Other observations

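The same 10 pathway lists were read in the other tissues. In CR eWAT, where 2.88% of 11791 features were called lower and 0.729% higher, 6 of 14 measured Rac regulators fell, among them Vav1 by 1.19 (adjusted p = 0.00369 by limma), Prex1 by 0.87 (adjusted p = 0.00252), Rac2 by 1.35 (adjusted p = 0.0102) and Arhgap15 by 0.77 (adjusted p = 0.0192), which are known mainly from blood cells. C1qa, C1qb and C1qc, the chains of the complement component that pentraxins bind, fell by 1.31, 1.42 and 1.32, Ebi3, a subunit shared by cytokines of the interleukin 12 family, fell by 1.30 and Tyk2, a kinase of its receptors, fell by 0.43. Kcnab2, the sister subunit of Kcnab1, fell by 1.09 and the phosphatase Dusp2 fell by 0.95. Macrophage markers, a list that also holds C1qa, moved on the same arrays: 3 of 5 measured fell, C1qa among them. Their summed level was 3300 at the lowest and 4810 at the median in WT against 1800 and 2790 in CR. Their part in these values was not tested. Hk2, Pkm and Pfkl, enzymes of glycolysis, rose by 0.84, 0.63 and 0.43 (3 of 29 measured), and Hsd11b1, which makes active glucocorticoid, rose by 1.09.

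In EX BAT, where 3.01% of 10025 features were called lower and 1.59% higher, 4 of 30 measured genes of glycolysis and glycogen rose, Hk2 by 0.76 (adjusted p = 0.00431 by limma), Fbp1, the liver isoform of fructose bisphosphatase, by 0.61, Pkm by 0.62 and Gapdh by 0.38. All EX animals are in series A, so each EX estimate here includes the series term. Hk2 had 10.73 to 11.38 in WT and 11.54 to 12.14 in EX, without overlap. Pkm had 11.44, 12.46 and 12.99 in WT and 12.21, 12.51 and 12.83 in EX, inside the WT range. The Gapdh medians were 13.6 in WT and 13.74 in EX. Dusp1 fell by 1.12 (adjusted p = 0.00186), Zeb2 fell by 0.79, Snai1 fell by 0.58 and Vav3 fell by 0.54, while Id2, an inhibitor of helix-loop-helix factors, rose by 0.78 and Dhrs7 rose by 0.70. C1qb and C1qc fell by 1.27 and 1.07. On the same arrays 2 of 5 measured macrophage markers fell, with a summed level of 420 to 1420 (median 706) in WT and 311 to 606 (median 406) in EX. Of 7 measured fibroblast and tendon markers 3 fell, with 2340 to 4640 (median 3320) in WT and 2080 to 3450 (median 2320) in EX, and Scx and Fmod were not above the filter. Their part in these values was not tested. Hk2 rose by 0.65 in SIRT1Tg BAT and Aldoc rose by 0.92 in CR BAT. In liver 0 genes of the 10 lists passed by limma in any of the 3 comparisons, with at most 4 of a list at an unadjusted p under 0.05.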
